A study of Mus musculus with 6 samples.

Results

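The genes described here move zinc and copper across membranes or hold them in the cytosol. They were taken by symbol from the table of translated mRNA of the choroid plexus (ChP), the epithelium that makes cerebrospinal fluid, as every zinc carrier of the Slc30a and Slc39a families, the metallothioneins Mt1, Mt2 and Mt3, and the copper genes Slc31a1, Slc31a2, Atp7a, Atp7b, Atox1, Ccs and Cox17. The rule found 34 of the 24354 gene rows, namely 14 Slc39a genes, 10 Slc30a genes, 3 metallothioneins and 7 copper genes. Of these, 28 had a mean above 1 FPKM (read fragments mapped to a gene, scaled to its length and to the sample's mapped reads) over all samples and were tested among 11601 genes.

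The study compared adult with embryonic ChP by TRAP-seq, in which tagged ribosomes are pulled down and the mRNA on them is sequenced. All animals carried Foxj1:cre and EGFP:L10a, so that Cre under the Foxj1 promoter switched on a ribosomal protein fused to EGFP, and Foxj1 is also active in ependyma and other ciliated cells. There were 3 adult samples, labelled 60 days, and 3 samples of embryonic day 16.5 (E16.5), with no treatment in either group. By the methods each adult sample pooled 3 mice and each E16.5 sample 3 litters, whereas the series entry speaks of 3 mice at each age, and the number of animals behind a replicate is not settled.

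Zinc enters the cytosol, from outside or from organelles, through the Slc39a (ZIP) carriers and leaves it, outward or into organelles, through the Slc30a (ZnT) carriers. Metallothioneins are small cysteine-rich proteins that bind zinc and copper, and Mt1 and Mt2 are induced by metals through the factor MTF1, which binds metal response elements. Copper enters through Slc31a1, is carried by the chaperones Atox1, Ccs and Cox17 to the secretory pathway, to superoxide dismutase 1 and to mitochondria, and is pumped by Atp7a and Atp7b. The ChP stands between blood and cerebrospinal fluid and handles both metals.

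Because Mt2 tested lower in adult ChP and its neighbours Mt1 and Mt3 did not pass, the upstream sequences of the metallothionein genes are shown. Each runs 5′ to 3′ over the 250 bases before the RefSeq start on the plus strand of GRCm38.p6, and capitals mark the core of the metal response element, searched as TGCACNC or TGCGCNC on both strands.
Mt1, chr8:94178839-94179088: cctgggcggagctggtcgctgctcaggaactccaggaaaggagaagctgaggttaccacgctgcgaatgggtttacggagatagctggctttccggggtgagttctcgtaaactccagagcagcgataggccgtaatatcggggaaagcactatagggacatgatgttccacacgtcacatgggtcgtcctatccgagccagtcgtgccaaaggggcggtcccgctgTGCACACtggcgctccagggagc
Mt2, chr8:94172368-94172617: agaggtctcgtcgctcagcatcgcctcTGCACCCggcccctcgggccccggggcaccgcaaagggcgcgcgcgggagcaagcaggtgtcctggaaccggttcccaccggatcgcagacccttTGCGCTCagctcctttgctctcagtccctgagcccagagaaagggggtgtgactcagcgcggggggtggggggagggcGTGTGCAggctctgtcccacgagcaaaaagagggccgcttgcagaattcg
Mt3, chr8:94152357-94152606: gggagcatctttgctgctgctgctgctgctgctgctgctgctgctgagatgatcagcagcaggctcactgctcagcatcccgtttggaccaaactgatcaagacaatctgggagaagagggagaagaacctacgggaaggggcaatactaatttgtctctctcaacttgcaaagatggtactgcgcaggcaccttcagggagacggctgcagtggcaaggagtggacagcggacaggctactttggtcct
The stretch before Mt2 held 3 cores, that before Mt1 held 1 and that before Mt3 held 0. With the 50 bases after the RefSeq start added, Mt2 had 4 cores, at -223, -128, -50 and +5 from the start, Mt1 had 3, at -23, +3 and +21, and Mt3 had 1, at +28. Cores of Mt1 and Mt2 thus also lie just after their starts, so the counts before a start depend on which annotated start is taken. Bases beyond the windows were not searched, so the counts do not rank the whole promoters of these genes. Of all 32851 RefSeq windows of this length, 25.7% held at least 1 core, 1.97% held at least 3 and 0.517% held at least 4. Windows were found for 28 of the 34 genes, and 18 of their 33 windows (54.5%) held a core. A match is a description of letters and not a bound site.

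**Figure D1:**
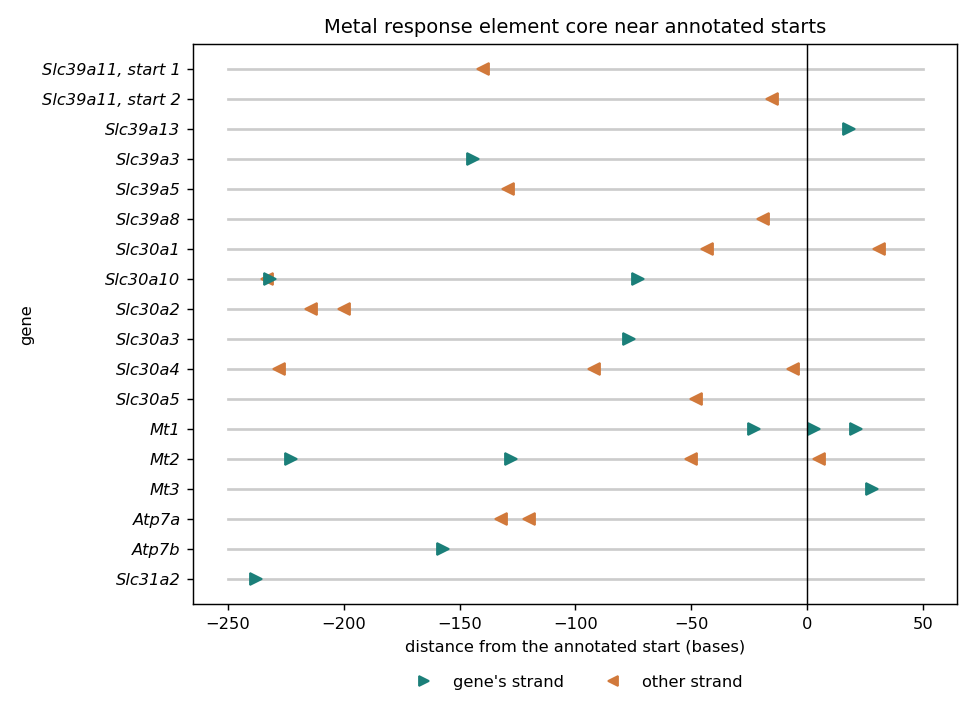
Positions of metal response element cores (x axis, bases from the RefSeq start) in the windows that hold at least 1 (y axis, genes), with arrowheads to the right for the gene's strand and to the left for the other. Mt2 has 4 cores, Mt1 has 3 and Mt3 has 1.

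Depth differed between the ages. Judged by the spacing of the lowest values, 1 read per kilobase was worth 0.113 to 0.331 FPKM in the adult samples and 0.0626 to 0.0789 FPKM at E16.5, with adult replicate 3 the shallowest, and 7599 to 11340 genes were above 0 in the adult samples against 12761 to 13077 at E16.5. The small RNA gene Mir6236 took 32.7 to 51.7% of the summed FPKM in the adult samples and 13.3 to 15% at E16.5. The median change over all genes tested was -0.86 on the log2 scale. A listed 0 can be a failed estimate, since the defining epithelial gene Ttr is listed at 0 in all E16.5 samples. Of the 12 epithelial markers, 5 were called higher in adult ChP, Ttr among them, and 2 at E16.5, Otx2 and Kcne2. Of all genes tested, 2.12% were called higher in adult ChP and 8.83% at E16.5. The summed level of the 12 markers was 39677 to 54743 FPKM in the adult samples against 3625 to 4096 FPKM at E16.5. Without Ttr and Enpp2, which made most of that gap, the other 10 summed to 3654 to 4709 FPKM in the adult samples and 3351 to 3854 FPKM at E16.5, ranges that overlap. Fewer cells of a type and less RNA per cell cannot be told apart in these bulk samples.

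Across the 28 genes tested, 1 was called higher in adult ChP and 1 at E16.5 by limma at an adjusted p under 0.05. These are 3.57% in each direction, where 2.12% of all genes tested were called higher in adult ChP and 8.83% at E16.5. The zinc importer Slc39a4 rose and the metallothionein Mt2 fell with age. All 3 adult values lay above all 3 E16.5 values in 6 genes (21.4%, against 7.39% of all genes tested) and below them in 8 (28.6%, against 31.0%). The median change of the 28 genes was -0.07, or 0.78 higher than over all genes tested. That offset was 0.70 to 0.90 under 4 other scalings, while the median itself ran from -0.78 to 0.91, so its sign depends on the scaling. Median ratio and same sum scaling rescale whole columns and move all genes nearly alike, so a steady offset under them does not test it. Replicates varied more in adult ChP, where the median SD of these genes was 0.80 on the log2(FPKM + 1) scale, than at E16.5, where it was 0.36. Adult replicate 3 held the lowest adult value in 14 of the 28 genes and was at 0 in 6.

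**Figure D2:**
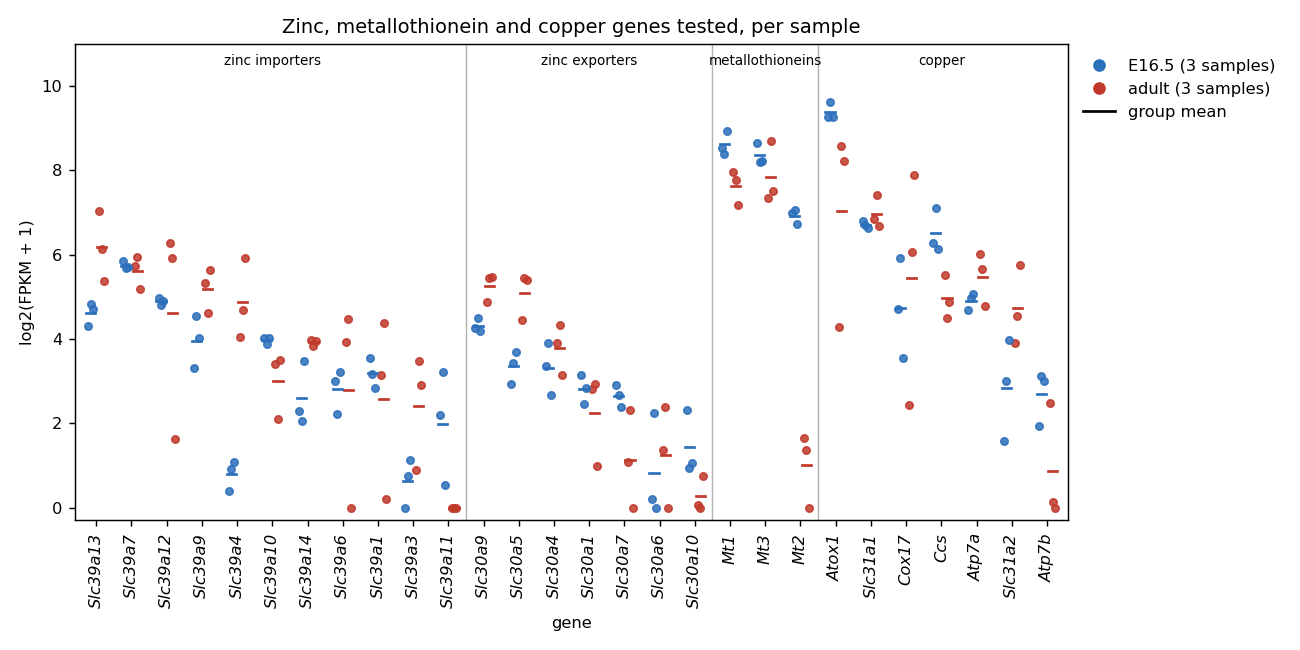
Level of each tested gene (y axis, log2(FPKM + 1)) in the 3 E16.5 samples (blue points) and the 3 adult samples (red points), grouped by role, with a short line at each group's mean. Slc39a4 is higher in all adult samples and Mt2 higher in all E16.5 samples, while Mt1 and Mt3 are high in all 6.

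The metallothioneins held some of the highest levels in the set and parted at the adult age. Mt2 stood at 2.17, 1.60 and 0 FPKM in the adult samples and at 127, 132 and 105 FPKM at E16.5. The groups did not overlap, with means of 1.26 ± 1.13 and 121 ± 13.9 FPKM (SD, n = 3 each). Mt2 fell by 5.91 on the log2(FPKM + 1) scale (SE 0.56, 95% interval -7.21 to -4.62, limma adjusted p = 0.00272). By its longest annotated transcript the adult values stand for about 2.6, 4.4 and 0 reads and the E16.5 values for about 499, 653 and 476, so the size of the change depends on the pseudocount (-8.52 at a pseudocount of 0.01). Over all alternatives it lay between -8.52 and -5.14, and the call was lost with a pseudocount of 0.01 (limma adjusted p = 0.0614) and without E16.5 replicate 1 (limma adjusted p = 0.0503) or 2 (limma adjusted p = 0.0558). Of the 50-base stretches of Mt2, 45.8% are shared with Gm45774, an overlapping gene on the other strand that has no row in the table, so its values are uncertain to that extent.

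Mt1 was abundant at both ages. It stood at 247, 218 and 145 FPKM in the adult samples and at 368, 333 and 491 FPKM at E16.5, with no overlap. The difference of -0.98 (SE 0.29, 95% interval -1.67 to -0.30) did not pass the test (limma adjusted p = 0.0713), and it passed only when the columns were rescaled to the same sum (limma adjusted p = 0.0161). Relative to the median of all genes tested the change of Mt1 was -0.13. Of all genes tested, 31.0% had all adult values below all E16.5 values. Mt3, the metallothionein known from brain, stood at 163, 414 and 182 FPKM in the adult samples and at 402, 294 and 299 FPKM at E16.5. These groups overlapped, and the difference was -0.51 (SE 0.39, limma adjusted p = 0.397).

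The composition of the metallothionein pool differed in every sample of one age from every sample of the other. Mt2 made 0.527, 0.252 and 0% of the summed FPKM of the 3 genes in the adult samples and 14.1, 17.3 and 11.8% at E16.5. Within a sample, log2(Mt2 + 1) minus log2(Mt1 + 1) lay between -7.19 and -6.29 in the adult samples and between -2.21 and -1.33 at E16.5, a difference of -4.93 (two-sided exact permutation p = 0.1, the smallest that 3 against 3 samples allow). The 3 genes lie together on chromosome 8 of mm10, Mt3 at 94152607 to 94154146, Mt2 at 94172664 to 94173568 and Mt1 at 94179082 to 94180327, all on the plus strand, with 5513 bases between Mt2 and Mt1. Mt2 had 4 cores in its window and Mt1 had 3, counts that depend on the annotated start. Any link between the cores and these levels was not tested.

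**Figure D3:**
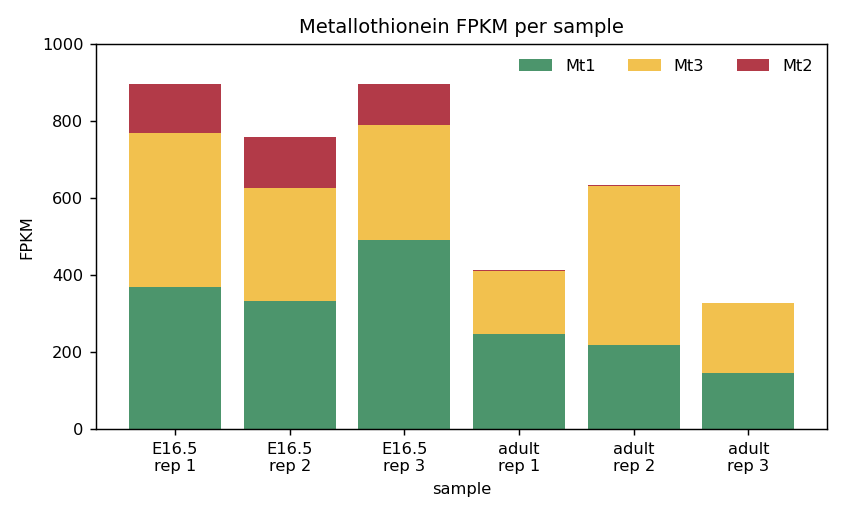
Stacked bars of the FPKM of Mt1, Mt3 and Mt2 (y axis) in each of the 6 samples (x axis). Mt2 is 11.8 to 17.3% of the sum at E16.5 and at most 0.527% in adult ChP.

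Summed markers of most other cell types were also lower in the adult samples. Over all genes tested, 8.83% were called higher at E16.5, 31.0% had all adult values below all E16.5 values, and the median change was -0.86. Summed FPKM of the 6 mesenchymal markers was 13.3 to 21.9 in the adult samples and 57.7 to 69.3 at E16.5, with 1 of 5 tested called higher at E16.5. For the 6 astrocyte markers it was 0 to 12.8 and 58.2 to 73.8, with 1 of 4 called. That gene, Gja1, stood at 49.4, 66.0 and 44.5 FPKM at E16.5 and made most of those sums. For the 7 markers of ependyma and motile cilia the summed FPKM was 373 to 493 and 2308 to 2757, with 4 of 6 called. Red blood cell markers summed to 0 to 6.49 and 54.1 to 324 FPKM, with 2 of 3 called. Neuronal and progenitor markers summed to 0.145 to 9.88 and 26.5 to 97.0, with 0 of 4 called by limma and 1 at an unadjusted p under 0.05. Of these, Sox2 stood at 26.3, 25.3 and 26.4 FPKM at E16.5. Tubb3 (36.2, 0.623 and 0.134 FPKM), Dcx (8.32, 0.598 and 0.00772 FPKM) and Stmn2 (25.3, 0 and 0 FPKM) were high in E16.5 replicate 1 only. Proliferation markers summed to 0 to 16.5 and 17.8 to 40.5, with 1 of 3 called. Endothelial markers (0.435 to 18.5 and 12.7 to 39.6) and macrophage markers (0.0695 to 4.71 and 0.509 to 7.48) overlapped between the ages, with 0 called by limma and 1 and 0 of them at an unadjusted p under 0.05. Listed at 0 in all adult samples but above 0 in at least 1 E16.5 sample were Dnah5, Lum, Plvap, Emcn, C1qa, C1qb, Hba-a1, Hba-a2, Hbb-b1, Hbb-bs, Dcx, Stmn2, Neurod1, Mki67, Top2a and Birc5. Aif1, Cd68, Neurod6 and Ccnb1 were listed at 0 in all 6 samples, and Pecam1 and Cldn5 at 0 in all but adult replicate 2. Their part in the values of Mt2 and of the other genes lower in adult ChP was not tested.

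Among the 14 Slc39a carriers, 11 were tested and Slc39a4 was the 1 that passed. Slc39a4, the carrier that takes up dietary zinc in the intestine and is mutated in acrodermatitis enteropathica, stood at 15.5, 24.7 and 59.9 FPKM in the adult samples and at 0.315, 0.905 and 1.11 FPKM at E16.5. No adult value came near an E16.5 value, and the means were 33.4 ± 23.4 and 0.775 ± 0.411 FPKM (SD, n = 3 each). Slc39a4 rose by 4.09 on the log2(FPKM + 1) scale (SE 0.69, 95% interval 2.48 to 5.69, limma adjusted p = 0.0156), and its mean FPKM was 43.0 times as high. By its longest transcript the values stand for about 155, 555 and 461 reads in the adult samples and 10, 37 and 41 at E16.5. The change was 3.52 to 5.36 over all alternatives, and it was not called at an adjusted p of 0.01 or without E16.5 replicate 1, 2 or 3 (limma adjusted p = 0.0765, 0.0737 and 0.0672). The gene lies on chromosome 15 of mm10, at 76612383 to 76617384 on the minus strand, and shares no 50-base stretch with another gene.

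Other Slc39a genes stood higher in every adult sample without passing the test. Slc39a13, which releases zinc from vesicles and the Golgi and is needed in connective tissue, stood at 131, 69.6 and 40.6 FPKM in the adult samples and at 19.0, 27.3 and 25.1 FPKM at E16.5, a difference of 1.57 (SE 0.47, limma adjusted p = 0.0713). It was called without adult replicate 3 (limma adjusted p = 0.0195), with quantile normalization (limma adjusted p = 0.0423) and with array weights (limma adjusted p = 0.0268), and its exons overlap Psmc3 on the other strand. Slc39a14, which also carries iron and manganese, was even among the adult samples at 14.9, 13.3 and 14.5 FPKM, against 3.89, 3.20 and 10.1 FPKM at E16.5 (difference 1.31, SE 0.58, limma adjusted p = 0.171). Slc39a9, a carrier of the Golgi and plasma membrane, stood at 39.5, 23.4 and 48.7 FPKM in the adult samples and at 9.02, 22.3 and 15.4 FPKM at E16.5 (difference 1.23, SE 0.49, limma adjusted p = 0.137), and overlaps Erh on the other strand. The lowest adult and the highest E16.5 value of Slc39a9 were close.

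Slc39a7, which releases zinc from the endoplasmic reticulum, overlapped between the ages. It stood at 52.5, 60.5 and 35.5 FPKM in the adult samples and at 56.4, 50.2 and 51.6 FPKM at E16.5, a difference of -0.12 (95% interval -0.88 to 0.64) whose sign turned with median ratio scaling, quantile normalization, array weights and without adult replicate 3. Under same sum scaling the difference was -0.94 (limma adjusted p = 0.116). Relative to the median of all genes tested the change of Slc39a7 was 0.73. Of its 50-base stretches, 74.5% are shared with a read-through gene, Gm20427, that has no row in the table. Slc39a11 was listed at 0 in all adult samples and at 3.61, 8.38 and 0.458 FPKM at E16.5, and no fold is given (limma adjusted p = 0.128). Slc39a10, a carrier of the plasma membrane that is named here after its values were seen, stood at 9.65, 3.34 and 10.4 FPKM in the adult samples and at 15.2, 13.8 and 15.3 FPKM at E16.5 (difference -0.97, SE 0.57, limma adjusted p = 0.276). Relative to the median of all genes tested its change was -0.11.

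The brain-enriched importer Slc39a12 turned on 1 library and is likewise named after its values were seen. It stood at 76.4, 59.5 and 2.11 FPKM in the adult samples and at 30.7, 27.2 and 29.1 FPKM at E16.5, so that adult replicate 3 lay below and the other adult samples above all E16.5 samples. The difference was -0.29 (SE 1.13, limma adjusted p = 0.874) with all samples and 1.19 (limma adjusted p = 0.0408) without adult replicate 3. Of the rest, Slc39a1, Slc39a3 and Slc39a6 overlapped between the ages, with differences of -0.61, 1.80 and -0.02. The signs of Slc39a1 and Slc39a6 turned in 3 and 6 of the 18 alternatives, to 0.58 and 1.38 without adult replicate 3, and that of Slc39a3 in 0. Slc39a1 shares 21.8% of its 50-base stretches with Slc39a1-ps. Slc39a8 was listed at 0 in all 6 samples, Slc39a2 was above 0 in E16.5 replicate 3 only, at 1.91 FPKM, and Slc39a5 reached 0.234 FPKM in E16.5 replicate 1 and 0.0398 FPKM in replicate 3. Summed over the family, Slc39a levels were 362, 306 and 218 FPKM in the adult samples and 156, 166 and 166 FPKM at E16.5.

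**Figure D4:**
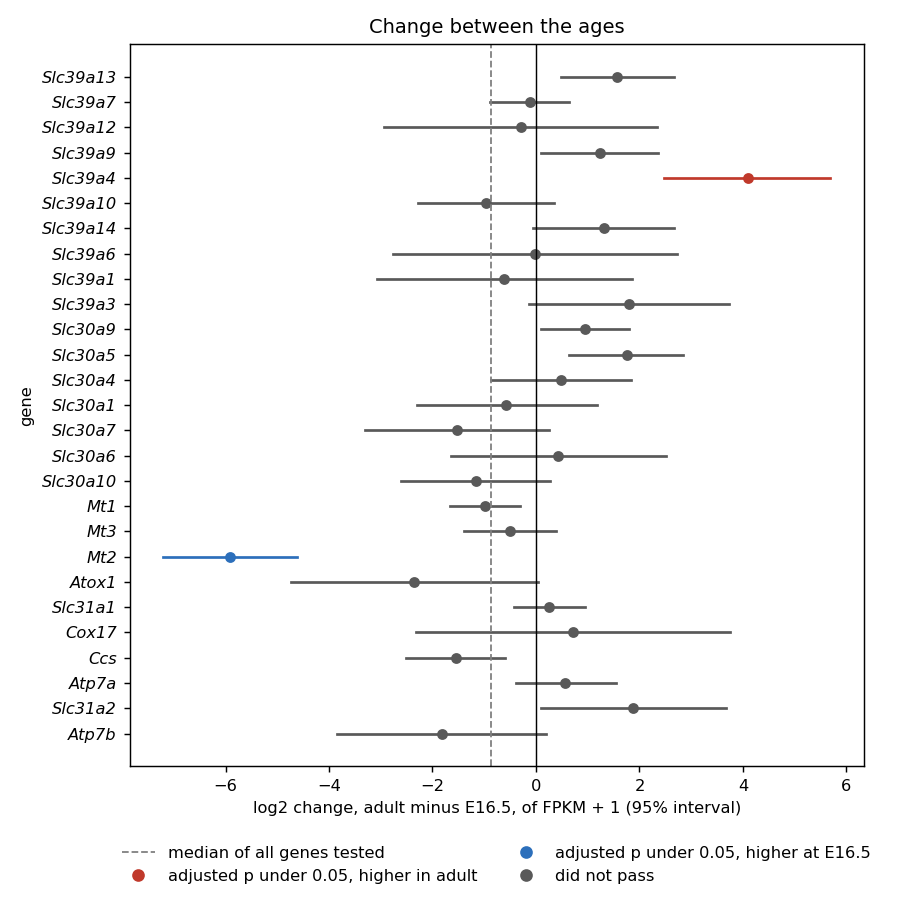
Change of each tested gene (x axis, log2(FPKM + 1), adult minus E16.5, with 95% intervals), without Slc39a11, which is listed at 0 in all adult samples. The dashed line at -0.86 is the median of all genes tested, and the coloured genes, Slc39a4 (red, higher in adult) and Mt2 (blue, higher at E16.5), passed the test.

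None of the 7 Slc30a exporters tested passed in limma, and 2 of them had an unadjusted p under 0.05, as did 31.3% of all genes tested, so the count is near that background. Slc30a5, which loads zinc into the Golgi for secreted enzymes, stood at 21.0, 42.9 and 41.1 FPKM in the adult samples and at 6.66, 9.85 and 11.9 FPKM at E16.5. The groups were apart, and the difference of 1.75 (SE 0.47, 95% interval 0.64 to 2.85) just missed the threshold (limma adjusted p = 0.0555). It was called with median ratio scaling (limma adjusted p = 0.0351), with quantile normalization (limma adjusted p = 0.0188) and when a gene had to exceed 1 FPKM in 3 samples (limma adjusted p = 0.0459). Slc30a9, a zinc carrier of mitochondria named after its values were seen, stood at 28.5, 42.8 and 43.3 FPKM in the adult samples and at 18.1, 21.8 and 17.4 FPKM at E16.5 (difference 0.95, SE 0.37, limma adjusted p = 0.131).

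Other exporters stood lower or overlapped. Slc30a7, another Golgi zinc carrier, stood at 1.13, 3.97 and 0 FPKM in the adult samples and at 6.53, 5.42 and 4.21 FPKM at E16.5 (difference -1.52, SE 0.77, limma adjusted p = 0.214). It shares 15.3% of its 50-base stretches with other genes. Slc30a10, a manganese exporter, was low throughout, at 0.0453, 0 and 0.695 FPKM in the adult samples and 3.97, 0.919 and 1.08 FPKM at E16.5 (difference -1.16, SE 0.62, limma adjusted p = 0.238), and its sign turned under quantile normalization. Neither separation passed the test. Slc30a1, the plasma membrane exporter, Slc30a4 and Slc30a6 overlapped between the ages, with differences of -0.57, 0.48 and 0.43. Each of these signs turned in at least 1 alternative, that of Slc30a1 to 0.86 with quantile normalization and 0.07 without adult replicate 3, that of Slc30a4 to -0.27 under same sum scaling and that of Slc30a6 to -0.14 without adult replicate 2. Slc30a2, Slc30a3 of synaptic vesicles and Slc30a8 of insulin granules were listed at 0 in all samples.

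None of the 7 copper genes passed in limma, and 2 had an unadjusted p under 0.05, again near the 31.3% of all genes tested. Slc31a1, the importer, was steady at 114, 170 and 101 FPKM in the adult samples and 111, 104 and 97.9 FPKM at E16.5 (difference 0.26, 95% interval -0.42 to 0.94, limma adjusted p = 0.556), with a sign that turned under same sum scaling. Slc31a2, a carrier of endosomes, stood at 13.9, 22.4 and 52.8 FPKM in the adult samples and at 1.99, 7.03 and 14.7 FPKM at E16.5 (difference 1.88, SE 0.77, limma adjusted p = 0.145). A single E16.5 value above the lowest adult value made these overlap.

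The chaperones for cytosolic delivery stood lower in every adult sample. Ccs, which loads superoxide dismutase 1, stood at 44.8, 21.8 and 28.3 FPKM in the adult samples and at 77.2, 138 and 69.9 FPKM at E16.5, a difference of -1.55 (SE 0.41, 95% interval -2.51 to -0.59) that just missed the threshold (limma adjusted p = 0.0530). It was called under same sum scaling (limma adjusted p = 0.00888), under that scaling without Mir6236 (limma adjusted p = 0.0354) and with the filter of 1 FPKM in 3 samples (limma adjusted p = 0.0407). Atox1, the most abundant gene of the set, stood at 18.5, 384 and 299 FPKM in the adult samples and at 614, 785 and 620 FPKM at E16.5 (difference -2.35, SE 1.03, limma adjusted p = 0.165). Adult replicate 1 stood far below the other adult samples, and without it the difference was -0.98 (limma adjusted p = 0.0659). Cox17, the mitochondrial chaperone, scattered most, at 4.39, 66.0 and 235 FPKM in the adult samples and 25.4, 60.0 and 10.8 FPKM at E16.5 (difference 0.72, SE 1.30, limma adjusted p = 0.729). Its sign turned under same sum scaling and without adult replicate 3, and its exons overlap Gm21987 on the same strand.

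The pumps overlapped between the ages. Atp7a, mutated in Menkes disease, stood at 63.8, 49.5 and 26.4 FPKM in the adult samples and at 24.7, 30.7 and 32.5 FPKM at E16.5 (difference 0.57, 95% interval -0.39 to 1.54, limma adjusted p = 0.374), with a sign that turned under same sum scaling. Atp7b, mutated in Wilson disease, stood at 4.58, 0.1 and 0 FPKM in the adult samples and at 2.86, 7.79 and 7.04 FPKM at E16.5 (difference -1.82, SE 0.87, limma adjusted p = 0.193). Atp7a was above Atp7b in all 6 samples.

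**Figure D5:**
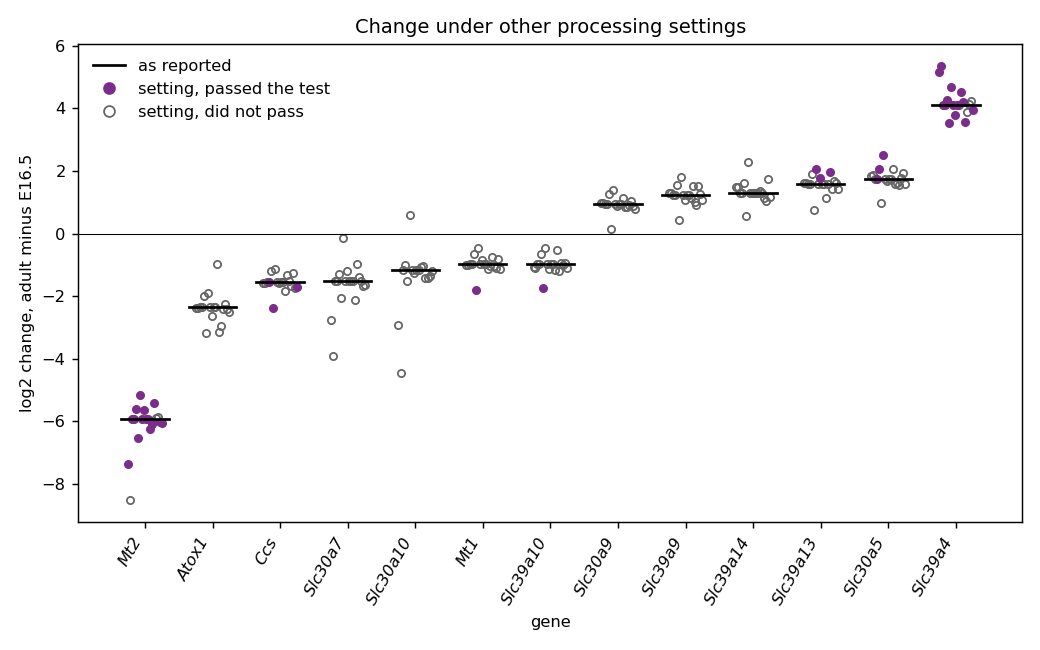
Change of the 13 genes whose ages do not overlap and whose adult values are not all 0 (y axis, log2 change, adult minus E16.5) as reported (lines) and under the alternatives (points, filled where the test was passed), 18 per gene but 16 for Slc30a10, which fell under the filter in the others. Slc39a4 (3.52 to 5.36) and Mt2 (-8.52 to -5.14) keep their signs, while Slc30a10 turns under quantile normalization.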

How the data were processed

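mRNA on tagged ribosomes was measured in 3 adult and 3 E16.5 samples of ChP, grouped by age from their labels. Per the methods, the authors aligned single-end reads of 50 bases to mm10 with STAR (2.4.0 in the submitters' processing notes) and made the deposited FPKM with Cuffquant of Cufflinks. Their counts and DESeq2 test were not used here. The table holds 24354 gene rows, of which 27 have dates in place of symbols. The annotation used is not given in the sources used here.

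No further scaling was applied to the deposited FPKM. limma 3.58.1 (R 4.3.3) was fitted with a trend of variance on intensity, and without covariates, to log2(FPKM + 1) of every gene whose mean over the 6 samples exceeded 1. Benjamini-Hochberg adjustment covered all 11601 genes, with 0.05 as the limit. Each change is the adult minus the E16.5 mean on this log2 scale, which understates the change of low genes. The test was checked on simulated data. Per the methods, replicates are separate pools of mice or litters, so p-values measure the spread between pools and not between single animals. The genes and lists were chosen with earlier results of these data known. Named were the genes that passed, the 10 most abundant, all metallothionein and copper genes, and those without overlap whose means differed by more than 1 on the log2 scale, and from each further list those called and the 2 most abundant. Pseudocount, filter, scaling, variance model, block, threshold and each replicate were varied.

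Depth was read from low values of 2523 genes with transcripts over 1000 bases, with 200 bases taken off each transcript. At the spacing chosen, 65.6 to 80% of the 45 to 70 lowest values per sample lay within 0.1 of a whole read. A fixed spacing gives 20% by chance, but the spacing was chosen to make this share high, so the 20% does not test it. Reads carry no molecular identifiers. Coordinates, overlaps and shared 50-base stretches are from GENCODE M21, and upstream sequences from RefSeq (GRCm38.p6). RefSeq starts need not match those of GENCODE, and for some genes they lie far apart. The Slc39a10 window at 46925727 to 46926026 lies outside the gene's GENCODE span of 46807544 to 46892852.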

Additional observations from a re-analysis of the deposited data

How the results depend on the processing

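The number of genes called higher in adult ChP, 1 as reported, was 2 when genes had to exceed 1 FPKM in 3 samples, 2 with median ratio scaling, 4 with quantile normalization, 2 with array weights and 0 at an adjusted p of 0.01. Leaving out 1 sample gave 0 to 3, with 0 without any 1 of the E16.5 samples and 3 without adult replicate 3 (Slc39a4, Slc39a12 and Slc39a13). Calls over all genes moved alike, from 246 to between 27 and 47 without an E16.5 sample and to 357 without adult replicate 3. The number called higher at E16.5, 1 as reported, was 2 with the filter of 1 FPKM in 3 samples, 4 under same sum scaling (Mt2, Mt1, Ccs and Slc39a10) and 2 under that scaling without Mir6236, chosen after seeing the data. Leaving out 1 sample gave 0 to 1, with 0 without E16.5 replicate 1 or 2. Over all genes these calls went from 1024 to 3238 under same sum scaling, to 1334 under that scaling without Mir6236 and to 25 and 16 without E16.5 replicate 1 or 2. With a pseudocount of 0.01 the 1 gene called was Slc39a11 in place of Mt2. The median change of -0.07 was 0.23 with median ratio scaling, -0.78 under same sum scaling, -0.23 under that scaling without Mir6236 and 0.91 with quantile normalization. The change of Slc39a12 ran from -1.13 to 1.19 when 1 sample was left out and reversed to 1.19 without adult replicate 3. The causes were not tested. With the replicate block 1 gene was called in each direction (112 and 452 over all genes). Same-numbered samples did not deviate together (r of 0.001, 0.044 and 0.015), so the numbers do not pair the samples. Depth limits the low genes most, in adult replicate 3 above all.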

Other observations

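Copper-dependent enzymes and other carriers of these metals were listed as neighbours of the same pathways. Of 15 copper enzymes, 9 were tested, 1 was called higher in adult ChP and 0 at E16.5 by limma, against 2.12% and 8.83% of all genes tested, with a median change of 0.16. At an unadjusted p under 0.05 there were 2 and 1, near the 31.3% of all genes tested. Sod3, the secreted superoxide dismutase that binds copper and zinc, stood at 101, 119 and 81.3 FPKM in the adult samples and at 0.562, 2.30 and 4.78 FPKM at E16.5, and rose by 5.02 (SE 0.57, limma adjusted p = 0.00464). Sod1, its cytosolic counterpart and the client of Ccs, stood at 355, 435 and 187 FPKM in the adult samples and at 851, 679 and 597 FPKM at E16.5 (difference -1.19, SE 0.35, limma adjusted p = 0.0677). All adult values of Sod3 lay above, and all those of Sod1 below, the E16.5 values.

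Of 11 genes for metal sensing and other carriage, 6 were tested, with a median change of 0.12. Of these, 1 was called in each direction, where 2.12% of all genes tested were called higher in adult ChP and 8.83% at E16.5. Steap2, a reductase of iron and copper, stood at 65.5, 51.5 and 35.5 FPKM in the adult samples and at 3.11, 3.73 and 3.69 FPKM at E16.5, and rose by 3.48 (SE 0.45, limma adjusted p = 0.00741). Commd1, a regulator of copper export, stood at 13.3, 24.6 and 93.0 FPKM in the adult samples and at 207, 221 and 144 FPKM at E16.5, and fell by 2.54 (SE 0.65, limma adjusted p = 0.0476). Mtf1, the metal sensor, is named although it was neither called nor among the 2 most abundant of its list. It stood at 15.5, 20.2 and 10.7 FPKM in the adult samples and at 24.4, 29.1 and 15.5 FPKM at E16.5 (difference -0.54, SE 0.46, limma adjusted p = 0.437), and the groups overlapped. Of 9 genes that deliver copper to cytochrome c oxidase, 8 were tested, with a median change of -2.34. Of these, 1 was called higher at E16.5, where 8.83% of all genes tested were. It was the assembly factor Coa6, listed at 0 in all adult samples and at 15.2, 31.9 and 9.81 FPKM at E16.5 (limma adjusted p = 0.0140). The most abundant of the 9, Chchd7 (7.36, 120 and 0 FPKM in the adult samples, 88.7, 165 and 46.2 FPKM at E16.5) and Cox19 (0, 45.7 and 0 FPKM, and 9.00, 53.8 and 36.2 FPKM), overlapped between the ages.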
